A study of Mus musculus with 59 samples.

Results

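In livers of overnight-fasted mice, 2593 PPARα binding regions in promoters had no fed PPARα peak centre within 200 bp. They also had no BCL6 or PPARδ centre of fed or fasted C57BL/6 livers within that distance. They are called gained promoter sites here and make up 8.92% of the 29085 PPARα peaks of fasted livers. A gained promoter site is a fasted PPARα peak with its centre between 1000 bp upstream and 100 bp downstream of the transcription start site (TSS) of a RefSeq transcript on mm10, and with no peak centre of the other 5 C57BL/6 lists within 200 bp. The regions were thus chosen by the fed and fasted calls of PPARα, by the calls of BCL6 and PPARδ and by lying in the promoter window, and what these values show is given as a description without a test. Where inside the window a centre lay was not used, and it is compared only with promoter sites held to the same window.

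ChIP-seq mapped the 3 factors in whole liver of male C57BL/6 mice that were fed ad libitum or fasted overnight. The rule used the wild-type (WT) animals, with 3 samples for each factor and feeding state combined into 1 list of peaks. A 7th list, BCL6 in fed livers of mice with the genotype Bcl6 fl/fl and no Cre in their labels, was not used by the rule and is called the floxed BCL6 list. The lists give where each peak starts and ends but no read count, so the depth is unknown, a peak is either called or not, and no spread between replicates can be computed. The 95% Wilson confidence intervals and the tests below run over peaks, which are units of counting and not replicates of a feeding state.

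PPARα is a ligand-activated nuclear receptor that is the main regulator of fatty acid oxidation and ketogenesis in the fasted liver. It binds DNA with its partner RXR at a DR1 element, a direct repeat of AGGTCA with 1 base between the copies. Many mammalian promoters, above all those of broadly expressed genes, instead lie in GC-rich stretches dense in CpG, with short elements for general factors such as ETS proteins, SP1, NRF1, YY1 and CREB. BCL6 is a transcriptional repressor that recruits corepressors, and PPARδ is a relative of PPARα that reads the same element.

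Because the DR1 is the element that PPARα itself reads, the gained promoter sites with the best matches to it are shown first. The 8 sites below have the fewest mismatches, and among equals the element nearest to the peak centre. Each line gives the element and 8 bases to either side on mm10, on the strand that reads AGGTCA, and the capitals mark bases identical to the repeat.
Etohd2, chr13:59769903-59769931, minus strand: agcccgcaAGGTCAcAGGTCAcctccctt
Zbtb40, chr4:137048919-137048947, minus strand: tgaggcgaAGGTCAaAGGTCAagagcaga
H2-Ke6, chr17:34027872-34027900, plus strand: aagggaggAGGTCAgAGGTCAcggggcgc
Gmnn, chr13:24762073-24762101, minus strand: agacggcaAGGTCAgAGGgCAcacactcc
Plscr3, chr11:69845377-69845405, plus strand: gatcttagAGGTgAaAGGTCAacagagag
1810034E14Rik, chr13:64248191-64248219, minus strand: ccagccaaAGaTCAaAGGTCAtttgtgat
Ranbp3, chr17:56672843-56672871, minus strand: aagaggcaAaGTCAgAGGTCAccctagat
Fdx2, chr9:21073578-21073606, plus strand: gccgtgtgAGGTCAaAGGTgAtgcactgg

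Only 3 of the 2593 gained promoter sites held a DR1 without a mismatch. They lay at Etohd2, a non-coding gene whose promoter also serves Isca1, at Zbtb40, a zinc finger gene, and at H2-Ke6, whose site lay 88 bp downstream of the TSS in an intron. The element lay 15.5 bp, 50.5 bp and 80.5 bp from the peak centre in these 3 sites. In the other 5 the DR1 had 1 mismatch and lay from 4.50 bp to 11.5 bp from the centre. Among them were Gmnn, which encodes the replication licensing inhibitor geminin, and Fdx2, a mitochondrial ferredoxin of iron-sulfur cluster assembly. All 8 are described here by their sequence, with the nearest fed PPARα centre between 479 bp (1810034E14Rik) and 70399 bp (Fdx2) away.

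The promoter sequences around 6 gained sites show the range of elements found. They were taken from the genes with a role in fasting and from the DR1 matches above, and only stretches that lie wholly upstream of the TSS and outside exons are shown. Each is read in the direction of the gene and centred on the peak, and the capitals mark every match to one of the 18 elements searched.
Fgf21 promoter, chr7:45615499-45615598, minus strand: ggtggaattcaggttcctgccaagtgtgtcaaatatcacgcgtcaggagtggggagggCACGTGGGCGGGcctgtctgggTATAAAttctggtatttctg
Atf4 promoter, chr15:80254836-80254975, plus strand: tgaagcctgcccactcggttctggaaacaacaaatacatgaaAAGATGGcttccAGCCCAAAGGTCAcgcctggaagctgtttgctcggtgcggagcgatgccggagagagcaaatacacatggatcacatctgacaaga
Gmnn promoter, chr13:24762013-24762152, minus strand: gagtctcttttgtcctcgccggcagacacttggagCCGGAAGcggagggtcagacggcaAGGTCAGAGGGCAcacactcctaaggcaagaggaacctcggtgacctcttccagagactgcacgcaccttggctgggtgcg
Sik1 promoter, chr17:31855919-31856058, minus strand: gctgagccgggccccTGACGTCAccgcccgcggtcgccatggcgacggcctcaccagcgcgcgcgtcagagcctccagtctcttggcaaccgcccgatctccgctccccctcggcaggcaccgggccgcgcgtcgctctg
Sirt1 promoter, chr10:63339056-63339195, minus strand: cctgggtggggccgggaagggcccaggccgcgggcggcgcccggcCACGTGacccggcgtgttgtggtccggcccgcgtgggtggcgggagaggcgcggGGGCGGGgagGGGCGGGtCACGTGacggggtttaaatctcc
Hnf4a promoter, chr2:163546991-163547130, plus strand: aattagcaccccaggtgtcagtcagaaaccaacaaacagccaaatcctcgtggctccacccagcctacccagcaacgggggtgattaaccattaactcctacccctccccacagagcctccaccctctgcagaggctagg

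Fgf21, the fasting hormone of the liver, has an E box and a GC box that share 1 base and a TATA box in this stretch, and the best DR1 match in its 200 bp window had 4 mismatches. Atf4, the transcription factor of the amino acid stress response, has a YY1 element and a DR1 with 2 mismatches. The Gmnn stretch holds an ETS element and the DR1 shown above. Sik1, a kinase that restrains CREB coactivators, has a cyclic AMP response element (CRE). Sirt1, the NAD-dependent deacetylase, has 2 E boxes and 2 GC boxes. Hnf4a, the nuclear receptor of hepatocyte identity, has a peak 94 bp upstream of its TSS and none of the 18 elements in this stretch.

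Of the 29085 fasted PPARα peaks, 4425 (15.2%) were in promoters. Among these promoter peaks, 2757 (62.3%) had no fed PPARα centre within 200 bp, and 164 of the 2757 were set aside because BCL6 or PPARδ was called nearby. The gained promoter sites are therefore 58.6% of all fasted promoter peaks, a share the rule itself fixes. Without C57BL/6 BCL6 or PPARδ nearby, 2593 of 3600 promoter peaks of fasted livers lacked a fed PPARα peak (72.0%, 95% confidence interval 70.5% to 73.5%), against 7133 of 11337 peaks outside promoters (62.9%, 62.0% to 63.8%). In the other direction, 191 of 1921 fed promoter peaks had no fasted PPARα peak and no other factor nearby, and are called lost promoter sites. The fed PPARα list held 21410 peaks in all, against 29085 in the fasted list. The part of this difference in the gained and lost counts was not tested.

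The gained sites were compared with the 1007 constant promoter sites, where PPARα was called in both states, and with the 7133 gained distal sites outside promoters, both also without C57BL/6 BCL6 or PPARδ. The limit of 200 bp divided few peaks. Of the constant sites, 965 had the fed centre at most 100 bp away and 42 had it 101 bp to 200 bp away, and just 9 gained sites had a fed centre 201 bp to 300 bp away. The gained sites nearest to the limit were at Il13ra1 (206 bp), E2f3 (207 bp) and Lamtor2 (213 bp). On its other side the constant sites of Palld (195 bp), Pcmtd1 (190 bp) and Naa60 (183 bp) had the fed centre farthest away. Most gained sites were not close to any fed PPARα peak. A fed centre lay between 201 bp and 1000 bp away at 158 (6.09%) and between 1001 bp and 10000 bp away at 664 (25.6%), and the median distance was 22987 bp.

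The gained promoter sites sat close to the start of transcription. The median position of the peak centre was -70 bp from the TSS (quartiles -179 bp to 2 bp, negative values upstream), against -94 bp for constant and -120 bp for lost promoter sites. The centre was within 100 bp of a TSS at 1534 gained sites (59.2%, 57.3% to 61.0%) and at 520 constant sites (51.6%, 48.6% to 54.7%), an odds ratio of 1.36 (1.17 to 1.57, two-sided Fisher's exact test, Benjamini-Hochberg adjusted p = 8.41e-05). By the annotation, which includes predicted transcripts, 1286 centres (49.6%) were in an exon, 332 (12.8%) in an intron and 975 (37.6%) between genes. The TSS belonged to a coding transcript at 95.6% of the gained and 92.5% of the constant sites (odds ratio 1.76, 1.29 to 2.40, Fisher's exact test, adjusted p = 4.24e-04). A divergent promoter, with the TSS of another gene on the opposite strand within 1000 bp upstream, was present at 444 gained (17.1%) and 137 constant sites (13.6%), an odds ratio of 1.31 (1.06 to 1.63, Fisher's exact test, adjusted p = 0.0100). With promoters taken from 500 bp upstream, the adjusted p of the coding share was 0.0513 and that of the divergent share 0.126, past the threshold of 0.05 in neither case. Among CpG-rich windows alone, the odds ratio was 1.44 for the coding share (adjusted p = 0.175) and 1.08 for the divergent share (adjusted p = 0.557).

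The DNA under the gained sites was rich in CpG. A 200 bp window at the peak centre counted as CpG-rich when at least 50% of its bases were G or C and the ratio of observed to expected CpG was at least 0.6. This held for 1969 gained sites (75.9%, 74.3% to 77.5%), 647 constant sites (64.3%, 61.2% to 67.2%), 88 lost promoter sites (46.1%, 39.2% to 53.2%) and 8599 of 25534 RefSeq promoters without a peak in any list (33.7%, 33.1% to 34.3%). The gained sites exceeded the constant sites with an odds ratio of 1.76 (1.49 to 2.06, Fisher's exact test, adjusted p = 9.96e-12). At gained distal sites the share was 629 of 7133 (8.82%), a contrast on which the promoter rule itself bears (odds ratio 32.6, 28.8 to 36.9, Fisher's exact test, p at most 1e-300, the smallest value kept). The median GC content was 64.5% at gained, 61.5% at constant and 49.5% at gained distal sites, and the median CpG ratio was 0.826, 0.737 and 0.218.

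**Figure D1:**
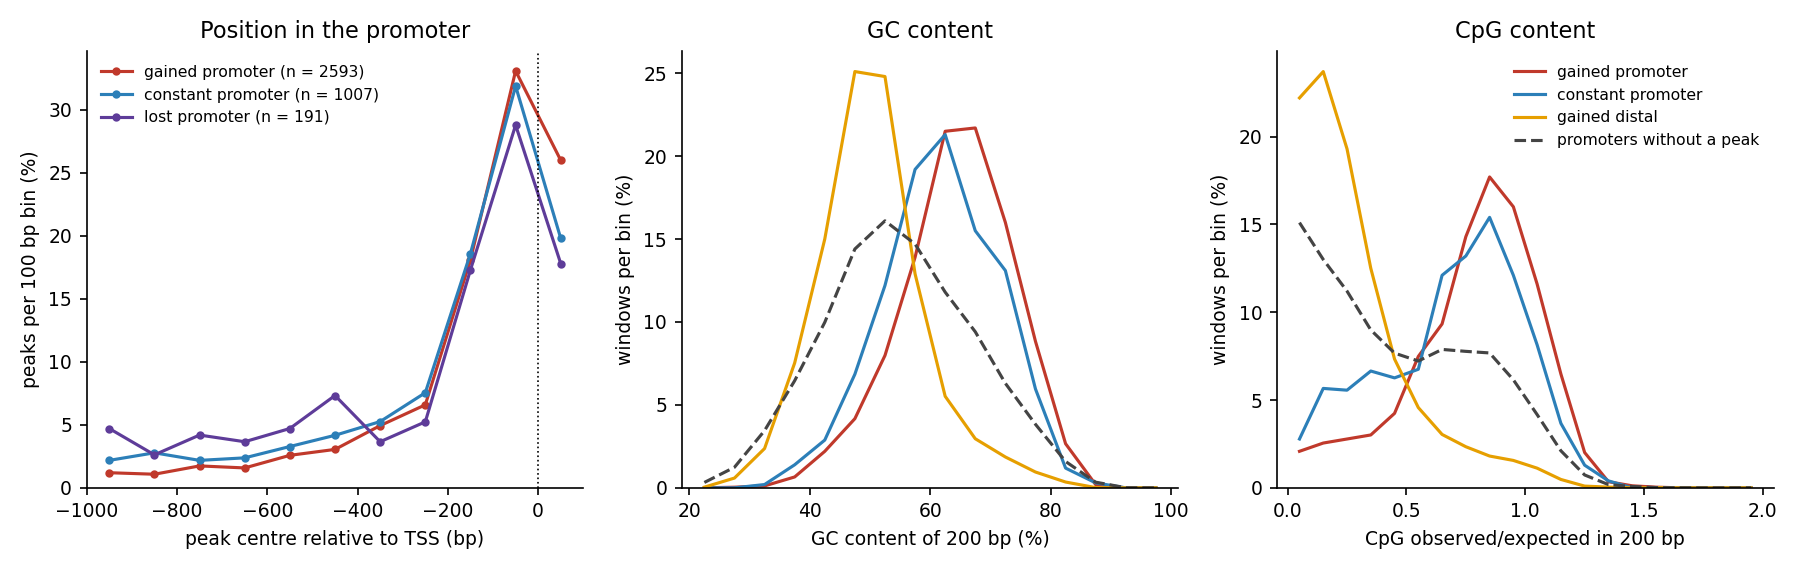
Left, the share of peaks (%) in bins of 100 bp by the distance of the peak centre from the transcription start site (bp, negative upstream) for gained, constant and lost promoter sites. Middle and right, the share of 200 bp windows (%) by GC content (%) and by the ratio of observed to expected CpG, for gained and constant promoter sites, gained distal sites and promoters without a peak. The gained promoter sites peak just upstream of the start site and reach the highest median GC content (64.5%) and CpG ratio (0.826) of the 4 classes drawn.

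The DR1 was uncommon at gained promoter sites. Each window was searched on both strands, allowing 2 mismatches for the DR1, and a match is a description of the letters and not a binding event. A DR1 was found in 106 of 2593 gained promoter windows (4.09%, 3.39% to 4.92%), in 41 of 1007 constant promoter windows (4.07%) and in 1204 of 7133 gained distal windows (16.9%, 16.0% to 17.8%). The odds ratio against gained distal sites was 0.210 (0.170 to 0.258, Fisher's exact test, adjusted p = 7.68e-72). The promoter rule itself bears on this contrast. Constant distal sites, outside promoters and called in both states, had a DR1 in 14.8% of windows. Against constant promoter sites no difference was detected, with an odds ratio of 1.0 whose 95% interval ran from 0.688 to 1.49 (adjusted p = 1.0). As background, the share was 2.10% in promoters without a peak and 2.66% in the gained promoter windows for the same letters in reversed order. Of the 106 windows, 3 had no mismatch, 21 had 1 and 82 had 2, and the element lay within 25 bp of the peak centre in 45 (42.5%, 33.5% to 52.0%), against 44.0% of the gained distal windows with a DR1. Among CpG-rich windows alone, the DR1 share was 2.64% at gained promoter, 3.34% at gained distal sites and 0.965% in promoters without a peak, and the first 2 of these no longer differed past the threshold (odds ratio 0.785, Fisher's exact test, adjusted p = 0.608).

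The ETS element and the GC box were found in more gained promoter windows than the DR1. These strings differ in length and in the mismatches allowed, so shares can be compared between classes but not between elements. Among CpG-rich windows, the DR1 share was 2.64% at gained promoter sites and 0.965% in promoters without a peak. An ETS element (CCGGAAG) was found in 599 gained promoter windows (23.1%, 21.5% to 24.8%), 242 constant (24.0%) and 227 gained distal windows (3.18%, 2.80% to 3.62%), and in 5.35% of promoters without a peak. The same letters reversed were in 5.09% of the gained promoter windows. Against gained distal sites the odds ratio was 9.14 (7.76 to 10.8, Fisher's exact test, adjusted p = 2.65e-183), and among CpG-rich windows alone it was 2.40 (adjusted p = 1.96e-12), with 28.1% of the gained promoter and 14.0% of the gained distal windows. In CpG-rich promoters without a peak the share was 10.7%. The GC box (GGGCGGG), read by SP1, was in 38.8% of gained promoter and 5.80% of gained distal windows (odds ratio 10.3, 9.05 to 11.7, Fisher's exact test, adjusted p at most 1.80e-299), but in 51.6% of the CpG-rich promoters without a peak against 44.8% of the CpG-rich gained promoter windows. The NRF1 element (GCATGCGC) was in 4.24% and 0.491% (odds ratio 8.98, adjusted p = 6.97e-35). The promoter rule itself bears on these contrasts with gained distal sites. At constant sites, the ETS element was in 24.0% of promoter and 3.02% of distal windows, and the GC box in 33.7% and 5.21%.

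Among the 18 elements, 9 were more frequent at gained promoter than at gained distal sites, 8 were less frequent and 1 did not pass the threshold. The promoter rule itself bears on this comparison as well. The other elements with a higher share were the E2F element (TTCCCGC), the CRE (TGACGTCA), the E box (CACGTG), the YY1 (AAGATGG) and ZNF143 (ACTACAA) elements and the CCAAT box (GCCAAT), with odds ratios from 1.32 (CCAAT box) to 5.57 (E2F). Besides the DR1, the elements with a lower share were the DR4 of LXR, the ERR element (TCAAGGTCA), the glucocorticoid receptor (GR) element, the FOXA (TGTTTAC) and HNF6 (TATTGAT) elements of liver factors, the TATA box (TATAAA) and the BCL6 element (TTCCTAGAA, 1 mismatch allowed). Their odds ratios ran from 0.139 (HNF6) to 0.777 (BCL6). The C/EBP element (TTGCGCAA, 1 mismatch allowed) was in 6.21% of gained promoter and 7.12% of gained distal windows (odds ratio 0.863, 0.714 to 1.04, adjusted p = 0.123). The DR1, DR4 and ERR strings share AGGTCA, so a stretch can match more than 1 of them, and the DR4 and GR elements were allowed 2 mismatches. Among CpG-rich windows alone, 6 of the 18 elements passed rather than 17. They were the ETS, NRF1 and ZNF143 elements, the GC box, the CCAAT box and the E box. CpG-rich promoters without a peak had higher shares than CpG-rich gained promoter windows for the CCAAT box (17.1% and 11.4%) and GC box (51.6% and 44.8%). For ZNF143 the shares were 2.54% and 2.44%. They were lower for the ETS element (10.7% and 28.1%), NRF1 (4.17% and 5.43%) and the E box (7.61% and 12.6%). These differences from promoters without a peak were not tested. The E2F, CRE and YY1 elements did not pass there (odds ratios 1.07, 1.22 and 1.86, Fisher's exact test, adjusted p = 0.769, 0.682 and 0.0542). None of the elements with a lower share passed there either.

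At least 1 of the 9 general promoter elements other than the TATA box was present in 1795 gained promoter windows (69.2%, 67.4% to 71.0%), 61.9% of constant promoter and 25.7% of gained distal windows. A DR1, DR4 or ERR element was present in 156 (6.02%, 5.16% to 7.0%), 6.75% and 21.0%. Neither group was present in 716 gained promoter windows (27.6%). The promoter rule itself bears on the contrasts with gained distal windows, and these joint shares were not computed for promoters without a peak.

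Between gained and constant promoter sites, 4 of the 18 elements passed the threshold and 14 did not. The ZNF143 element was in 68 gained (2.62%, 2.07% to 3.31%) and 10 constant windows (0.993%), an odds ratio of 2.68 (1.37 to 5.87, Fisher's exact test, adjusted p = 0.0184). The GC box was in 38.8% and 33.7% (odds ratio 1.25, 1.07 to 1.46, adjusted p = 0.0203). The BCL6 element was in 3.59% and 5.86% (odds ratio 0.598, 0.423 to 0.851, adjusted p = 0.0184) and the C/EBP element in 6.21% and 9.14% (odds ratio 0.658, 0.501 to 0.870, adjusted p = 0.0184). None of the 4 passed with promoters taken from 500 bp upstream, with windows of 50 bp or among CpG-rich windows alone, where 6, 3 and 5 of the 18 elements had an unadjusted p under 0.05. The ETS element had an odds ratio of 0.950 (0.798 to 1.13, adjusted p = 0.640).

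**Figure D2:**
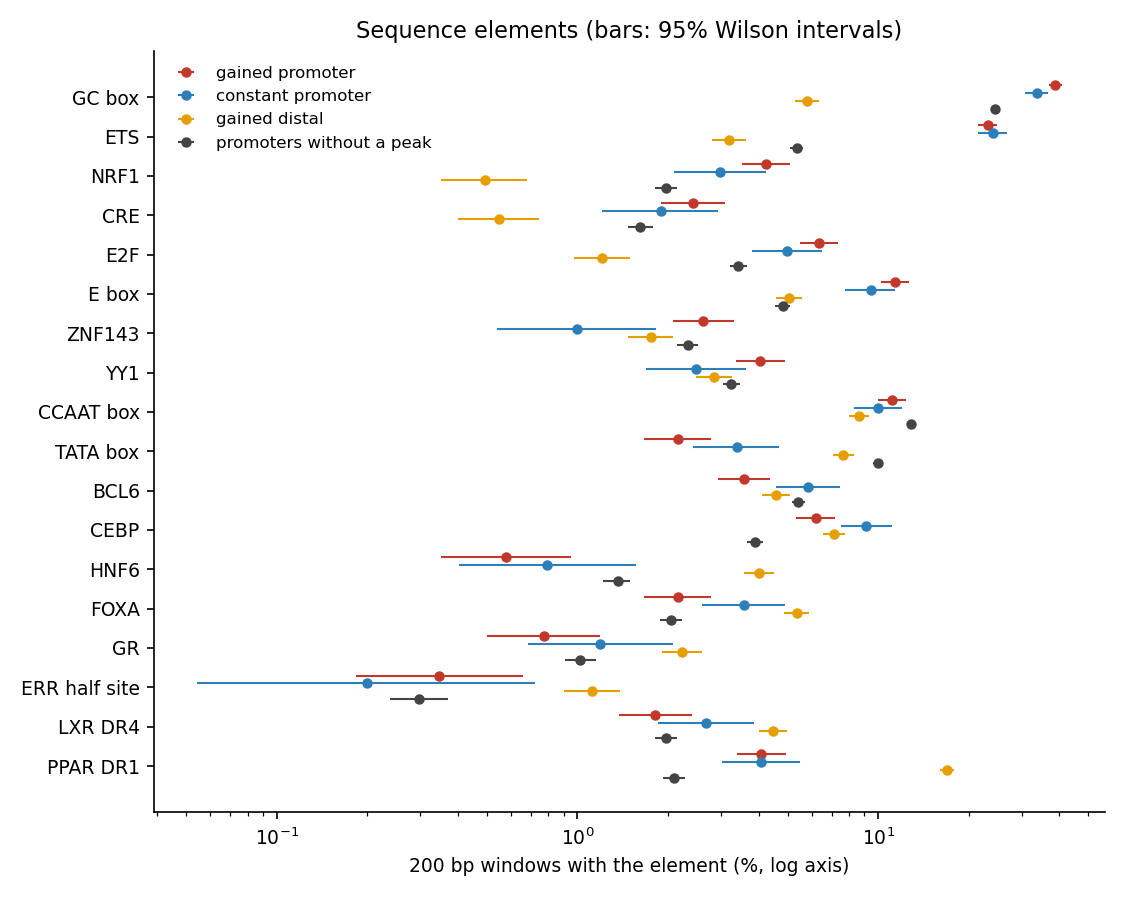
Share of 200 bp windows (%, log axis) with each of 18 sequence elements in gained promoter sites (n = 2593), constant promoter sites (n = 1007), gained distal sites (n = 7133) and promoters without a peak (n = 25534), with 95% Wilson intervals as bars. The DR1 stands at 16.9% of gained distal but 4.09% of gained promoter windows, whereas the ETS element stands at 3.18% and 23.1%.

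BCL6 of the floxed mice was rarely called at the gained promoter sites. This list was made from other fed animals of the same strain background, and 5639 of its 17454 peaks (32.3%) had no C57BL/6 BCL6 centre within 200 bp. Every class compared here was itself chosen without a C57BL/6 BCL6 centre within 200 bp. A low share of floxed BCL6 in each class thus follows in part from the rule. A floxed BCL6 centre lay within 200 bp of 134 gained promoter sites (5.17%, 4.38% to 6.09%), 229 constant promoter sites (22.7%, 20.3% to 25.4%), 650 gained distal sites (9.11%, 8.47% to 9.80%) and 1276 of 4204 constant distal sites (30.4%, 29.0% to 31.8%). The odds ratio of gained against constant promoter sites was 0.185 (0.146 to 0.234, Fisher's exact test, adjusted p = 1.11e-48), and that of gained promoter against gained distal sites was 0.544 (0.445 to 0.660, adjusted p = 5.45e-11). The rule required a fed PPARα call at constant sites and none at gained sites, and the floxed list also comes from fed livers. The rule itself thus bears on the contrast of gained with constant sites. Outside promoters, the same split by fed call gave 9.11% and 30.4%. Among lost promoter sites the share was 24 of 191 (12.6%, 8.59% to 18.0%). Depth and the strength of the peaks, which the lists do not hold, could not be compared between these classes, and their part in the difference was not tested.

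Where floxed BCL6 was called at a gained promoter site, its centre lay a median of 43.5 bp from the PPARα centre, and within 50 bp at 74 of the 134 sites (55.2%). The closest pairs were at Mir1191b (0 bp), Arap2 (1 bp), Zbtb44 (1 bp), Ccnd3 (2 bp) and 4931440P22Rik (3 bp, a tie with Ptprk). Arap2 encodes a GTPase-activating protein, and its site lay 88 bp upstream of the TSS at chr5:62766154-62766376. Ccnd3 encodes cyclin D3, and its site lay 51 bp downstream at chr17:47504991-47505213. The windows of the 134 sites held a BCL6 element in 9 cases (6.72%, 3.57% to 12.3%) and an ETS element in 17 (12.7%, 8.07% to 19.4%), against 3.42% (2.77% to 4.21%) and 23.7% (22.0% to 25.4%) of the 2459 sites without a floxed BCL6 peak. These shares are given without a test.

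**Figure D3:**
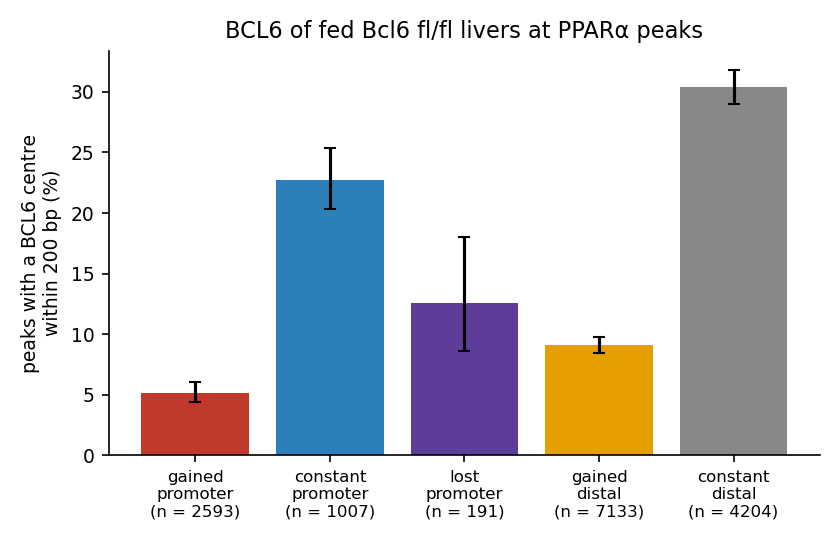
Share of PPARα peaks (%) with a BCL6 centre of fed Bcl6 fl/fl livers within 200 bp, by class of PPARα peak, all without BCL6 or PPARδ of C57BL/6 livers nearby. Bars are shares and error bars 95% Wilson intervals, and the gained promoter sites have the lowest share (5.17%) of the 5 classes.

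The gained sites were in promoters of 2891 RefSeq genes, or 11.0% of 26180, and of 12.7% of the 21000 genes with a coding transcript. Constant promoter sites were in promoters of 1108 genes (4.23%), and 44 genes had both kinds. Of the 2891 genes, 68 had 2 gained sites and none had more. A single site lay in promoters of 2 genes in 353 cases (13.6%). The density on the chromosomes ran from 5.11 gained sites per 100 start sites on X to 9.88 on chromosome 19, and Y, with 93 start sites, had none. The shares of genes in a list below are read against the 11.0% of all RefSeq genes, and those with a constant site against 4.23%. No list was tested, and the part that CpG content has in these shares was not tested either.

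The known PPARα targets had gained sites, as defined here, about as often as all genes. Of 70 genes on this list, 7 (10.0%) had a gained promoter site, and 7 (10.0%) had a constant one. Among them, Abcd3 encodes a peroxisomal transporter of fatty acids, Slc27a1 a fatty acid transport protein, Decr1 the dienoyl-CoA reductase of fatty acid oxidation, Cyp4a31 a member of the omega-hydroxylase family, Cidec a lipid droplet protein and Fgf21 the fasting hormone. Fgf21 had 2 gained sites, 59 bp upstream of its TSS at chr7:45615438-45615660 and 979 bp upstream at chr7:45616358-45616580. The nearest fed PPARα centres lay 4500 bp and 5420 bp from them. The Abcd3 site was centred on the TSS itself, and a fed PPARα centre lay 806 bp away. The Decr1 site was 50 bp upstream of its TSS with a fed centre 589 bp away, and the Cyp4a31 site 61 bp upstream with a fed centre 1060 bp away. None of the 8 sites of these genes held a DR1 with 2 or fewer mismatches, and none had a floxed BCL6 peak within 200 bp. At Decr1 a floxed BCL6 centre lay 565 bp away.

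The list of fasting regulators had a gained site at 16 of 49 genes (32.7%) and a constant site at 6 (12.2%). Among them were the transcription factors Atf4, Cebpa, Creb1, Hif1a, Tfe3 and Hnf4a, the glucocorticoid receptor gene Nr3c1 and the circadian repressor gene Nr1d2. Regulators of insulin and nutrient signalling were Irs1, Tsc1, Tsc2, Ddit4, Sesn1, Sik1 and Sirt1, and Pcx encodes pyruvate carboxylase, the first enzyme of gluconeogenesis from pyruvate. The Cebpa site lay 134 bp upstream of its TSS at chr7:35119048-35119270, with a fed PPARα centre 2486 bp away. The Pcx site lay 259 bp upstream of one of its start sites, with a fed centre 1436 bp away. The Sirt1 site lay 91 bp upstream at chr10:63339015-63339237 and had its nearest fed centre 34480 bp away, and for Creb1 that distance was 84715 bp. Of the 16 sites, 10 (62.5%) were CpG-rich and 1, at Atf4, held a DR1. No site of this list had a floxed BCL6 centre within 200 bp, and the nearest were at Nr1d2 (348 bp) and Irs1 (415 bp). Genes of autophagy and lysosome biogenesis had a gained site at 10 of 39 (25.6%), among them Becn1, a core factor of autophagosome formation, 5 bp downstream of the TSS, Lamp1, a lysosomal membrane protein, 28 bp downstream, and the protease gene Atg4d, 53 bp upstream.

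Genes that most cells use had some of the highest shares. Splicing factors had a gained site at 25 of 75 genes (33.3%), ubiquitin conjugation and removal at 30 of 102 (29.4%), chaperones at 22 of 77 (28.6%), cytosolic ribosomal proteins at 24 of 89 (27%) and aminoacyl-tRNA synthetases at 9 of 34 (26.5%). Subunits of oxidative phosphorylation had one at 22 of 88 (25.0%), Rab GTPases and vacuolar sorting proteins at 20 of 93 (21.5%), translation factors at 13 of 62 (21.0%) and mitochondrial ribosomal proteins at 16 of 78 (20.5%). Zinc finger genes followed with 80 of 463 (17.3%), proteasome subunits with 8 of 48 (16.7%) and RNA polymerase II and Mediator with 7 of 43 (16.3%). Peroxins, the proteins that build peroxisomes, had 2 of 17 (11.8%), mitochondrial solute carriers 5 of 47 (10.6%) and histones 7 of 103 (6.80%). None of 1110 olfactory receptor genes had a gained or a constant site. Constant sites ran from 0 of 103 histone genes to 16.3% of the RNA polymerase II and Mediator list, where 7 genes had a gained and 7 a constant site. In most of these lists the constant share was also above the 4.23% of all genes. It was 12.9% at translation factors, 10.3% at mitochondrial ribosomal proteins, 9.09% at chaperones and 6.86% at ubiquitin conjugation and removal. Cytosolic ribosomal proteins had 6.74%, splicing factors 6.67% and oxidative phosphorylation 5.68%. At aminoacyl-tRNA synthetases it was 2.94%, below that of all genes.

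**Figure D4:**
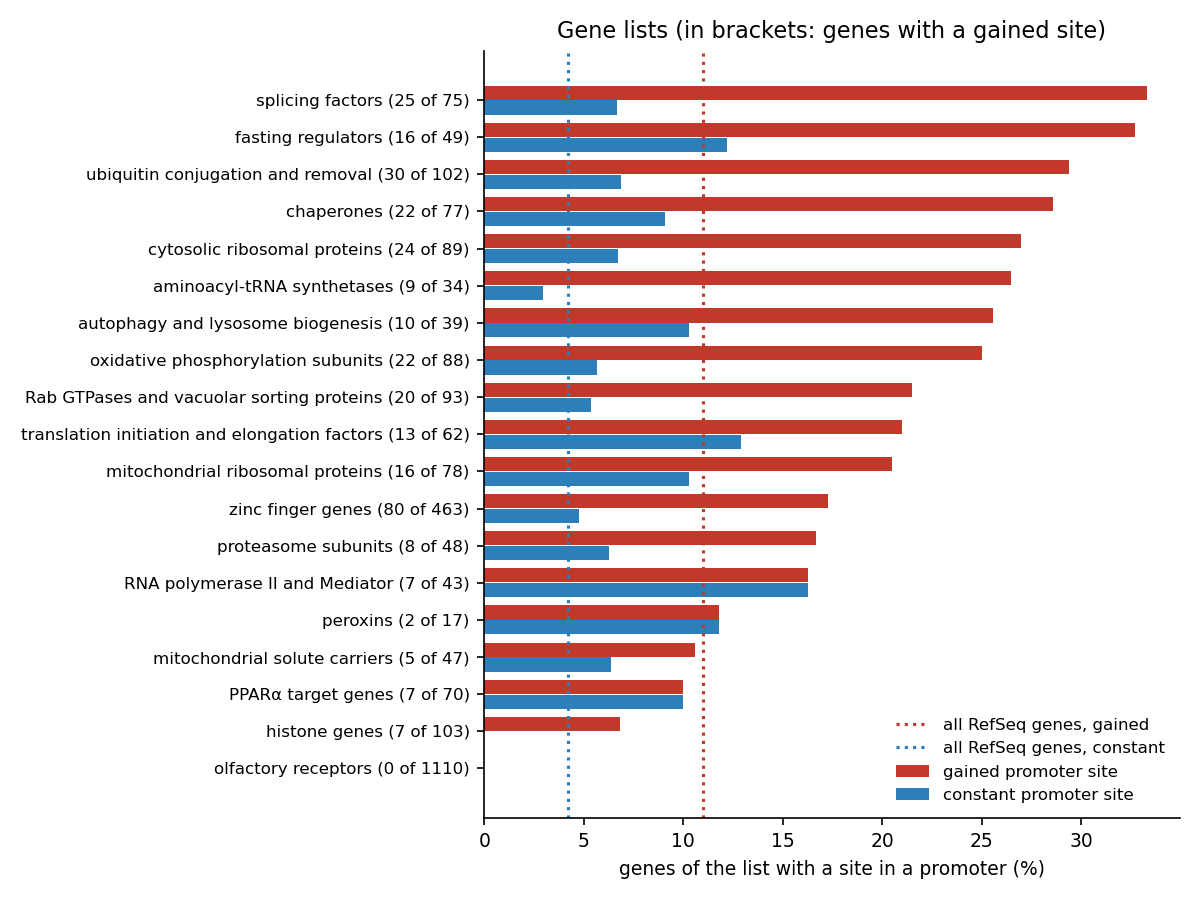
Share of the genes of each list (%) with a gained (red) or a constant (blue) promoter site of PPARα, with the number of genes with a gained site of those matched in brackets. Dotted lines mark the shares over all RefSeq genes (11.0% and 4.23%). Splicing factors and fasting regulators have the highest shares of gained sites (33.3% and 32.7%), PPARα targets lie at 10.0% for both kinds of site, and olfactory receptors have none.

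The position of the gained sites varied between these lists. Against a median of -70 bp over all gained sites, the cytosolic ribosomal protein sites had a median of -69 bp, those of oxidative phosphorylation -20 bp, those of mitochondrial ribosomal proteins -10 bp, those of ubiquitin conjugation and removal -118.5 bp, histones -128 bp and peroxins -181.5 bp. An ETS element was in 12 of the 24 cytosolic ribosomal protein windows (50.0%, 31.4% to 68.6%), in 8 of 16 of the mitochondrial ones (50.0%, 28.0% to 72.0%) and in 5 of 9 at aminoacyl-tRNA synthetases (55.6%, 26.7% to 81.1%), against 23.1% of all gained sites. It was in 5 of 22 chaperone windows (22.7%), 6 of 30 of ubiquitin conjugation and removal (20%), 2 of 20 of Rab GTPases and vacuolar sorting proteins (10.0%) and none of the 10 autophagy or 7 histone windows. Rpl30, a protein of the large cytosolic subunit, had an ETS and a YY1 element at a site 18 bp upstream of its TSS, and so had Rpl37 17 bp upstream. Sdhb, the iron-sulfur subunit of succinate dehydrogenase, had ETS, NRF1, GC box and CCAAT elements at a site 11 bp upstream. Ndufb6, a subunit of complex I, had a GC box and a C/EBP element at a site 8 bp upstream. A DR1 was in 3 of the 23 oxidative phosphorylation windows (13.0%, 4.54% to 32.1%) and in none of the 29 splicing factor windows. Hnrnpm and Hnrnpr, which encode nuclear RNA-binding proteins, had sites 2 bp and 5 bp upstream, and Prpf19, an ubiquitin ligase of the spliceosome, 7 bp downstream with ETS, CCAAT and E box elements. Psmb2, a subunit of the proteasome core, had a CRE at a site 3 bp downstream of its TSS. Med11, a Mediator subunit, had a ZNF143 element at a site 1 bp downstream, and Dnajc10, a chaperone of the endoplasmic reticulum, had a site 1 bp upstream with none of the 18 elements.

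A pair of gained sites was seen at Abhd4 and Aifm2, which have start sites in different places. The Abhd4 sites at chr14:54253945-54254167 and chr14:54259118-54259340 were 73 bp and 54 bp upstream of separate start sites, the first of which also faces Dad1. The Aifm2 sites, 1 bp and 123 bp upstream of separate start sites, had fed PPARα centres 1453 bp and 2583 bp away. Aifm2 encodes an oxidoreductase of coenzyme Q and Abhd4 a lipase of N-acyl phospholipids.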

How the data were processed

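ChIP-seq peak lists of PPARα, PPARδ and BCL6 in mouse liver were used, 7 lists that combine 3 samples each (21 of the 59 samples); inputs, knockouts and H3K27ac were not used here. Per the study's methods and the labels, the authors aligned reads with Bowtie to mm10, kept at most 1 read per position, ran HOMER on the pooled triplicates to find peaks over input and used DESeq2 on individual libraries to keep peaks of at least 2-fold enrichment. The deposited values are genomic positions with no count, signal or score, so no normalization applies, depth and its effect on the number of calls are unknown, and reads mapping to several places cannot give peaks.

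Peak centres within 200 bp were taken as shared, the study's distance. TSSs came from 45756 curated RefSeq transcripts of GRCm38.p6, the assembly of mm10. Windows of 200 bp were scanned on both strands for 18 elements, with promoters without a peak (window centred 100 bp upstream of the TSS) and reversed strings as background. Each share was tested with Fisher's exact test (two-sided), p-values were adjusted after Benjamini and Hochberg within a comparison, and odds ratio intervals are conditional exact ones. The membership rule was tested on simulated data (130 of 130 planted members found). Alternatives varied the distance, promoter, transcripts, chromosomes, windows, mismatches and repeats. Named genes were all members on the PPARα target and fasting lists, the 8 best DR1 matches, the 5 genes with most members (ties by symbol), the 3 nearest to a TSS of each other list, the 5 nearest to floxed BCL6 and the 3 on either side of the 200 bp limit; sequences shown were picked from these, and 1 gene that the rule names is not reported here. The members, lists and elements were chosen with earlier results of these data known, and name patterns of the gene lists were narrowed after matches were seen, to drop kinases and binding proteins that share a prefix. Analyses used Python 3.11.15, NumPy 2.4.6, pandas 2.3.3, SciPy 1.17.1 and Matplotlib 3.10.9.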

Additional observations from a re-analysis of the deposited data

How the results depend on the processing

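No paired analysis was possible because each list combines its replicates. For the same reason no replicate could be left out. The number of gained promoter sites ran from 2381 (promoter from 500 bp upstream) to 3204 (1000 bp on either side), and the share with floxed BCL6, the share rich in CpG and the share near a TSS kept their direction and stayed past the threshold under all alternatives run. With promoters from 500 bp upstream, the odds ratio for divergent promoters was 1.20 (adjusted p = 0.126) and for coding transcripts 1.47 (adjusted p = 0.0513), and among CpG-rich windows alone, an alternative chosen after seeing the data, they were 1.08 (adjusted p = 0.557) and 1.44 (adjusted p = 0.175). With coding transcripts only, the coding share could not be tested. The 4 elements that differed from constant sites became 0 with promoters from 500 bp upstream (6 at an unadjusted p under 0.05), 0 with 50 bp windows (3), 0 among CpG-rich windows (5), and 2 with coding transcripts only, with 1 mismatch fewer or with repeats masked. Without the condition on BCL6, also added later, they were 11. Against gained distal sites, 6 elements rather than 17 passed among CpG-rich windows. Single elements turned direction without passing the threshold: the BCL6 element against constant sites with 1 mismatch fewer (odds ratio 1.17, adjusted p = 1.0), the CCAAT box against gained distal sites with 50 bp windows (0.963, adjusted p = 0.882), and among CpG-rich windows the ERR element (1.28), the BCL6 element (1.29) and the TATA box (1.61). The causes were not tested. The lists hold no depth, so a site missing from a list may be bound below the calling limit.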
